A study of Mus musculus with 6 samples.

Results

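The surrogate light chain and Cd79 genes are the 6 genes Igll1, Vpreb1, Vpreb2, Vpreb3, Cd79a and Cd79b, taken by their symbols out of the 22098 symbols in the deposited expression table. Each of the 6 is listed with 1 transcript, and all 6 had a mean of at least 1 RPKM (reads per length of transcript and per size of library, as computed by the authors) over the 6 libraries, as did 10943 symbols in all. RNA sequencing was carried out on proB cells, the earliest committed B-lineage cells, sorted from the bone marrow of C57BL/6 mice aged 6 to 7 weeks. The 3 genotypes were the Ikaros ZnF4-/- mutant, the Ikaros ZnF1-/- mutant and wild type (wt), and each was sorted into Hardy fraction C+C' (fraction C below) and the earlier Hardy fraction B. Ikaros, the product of Ikzf1, binds DNA through zinc fingers, and the mutants are named for the finger that is altered, the fourth or the first. Each combination of genotype and fraction was 1 library, so no difference between a pair of libraries has a replicate check. The labels do not say how the alleles were made or how many animals entered a library.

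The preB cell receptor is assembled when a newly rearranged immunoglobulin heavy chain pairs with the surrogate light chain, which stands in for a light chain that has not yet been made. Igll1 encodes λ5, the constant-like part of the surrogate light chain, and Vpreb1 and Vpreb2 encode its variable-like partner, VpreB. Cd79a and Cd79b encode Igα and Igβ, the membrane pair that carries the receptor's signal through cytoplasmic tyrosine motifs phosphorylated by Src-family kinases, to which the kinase Syk then binds. Vpreb3 encodes a related protein that associates with newly made immunoglobulin chains inside the cell. The activators EBF1, E2A and Pax5 act on these genes in early B cells. The surrogate light chain genes are silenced once the receptor has signalled, a step in which Ikaros and the related Aiolos take part at Igll1, whereas Cd79a and Cd79b stay on for most of B-cell life.

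The sequences before the gene starts are shown because Ikaros, EBF1 and E proteins each recognise a short core. The RefSeq promoter table (build GRCm38.p6) held an entry for 5 of the 6 genes, all but Cd79b. Motifs were searched on both strands in the 250 bases before each RefSeq start: GGGAA (the core bound by Ikaros), CCCNNGGG (the core bound by EBF1) and CANNTG (the E-box, bound by E proteins). For Igll1 the window at chr16:16863986-16864235 on the minus strand is printed whole, with the 1 CCCNNGGG match and the 3 E-boxes in capitals:

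Igll1: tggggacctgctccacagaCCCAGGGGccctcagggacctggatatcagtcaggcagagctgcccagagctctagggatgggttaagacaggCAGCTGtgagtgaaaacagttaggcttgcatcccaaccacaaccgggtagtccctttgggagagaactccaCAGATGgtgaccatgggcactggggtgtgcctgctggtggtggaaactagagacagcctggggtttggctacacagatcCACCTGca

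GGGAA was not among the letters of the Igll1 window, and Igll1 was the 1 gene of the 5 with an exact CCCNNGGG match. For Cd79a the 134 bases at chr7:24897247-24897380 on the plus strand that lie before the first annotated transcript start are printed, with the GGGAA match and the E-box in capitals:

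Cd79a: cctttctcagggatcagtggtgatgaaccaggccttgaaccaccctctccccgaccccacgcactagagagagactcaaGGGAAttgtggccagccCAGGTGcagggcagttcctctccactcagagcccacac

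Vpreb1 and Vpreb2 are near-identical copies, which matters for every value of theirs below. The stretches before their starts at chr16:16869256-16869361 on the minus strand and chr16:17980315-17980420 on the plus strand were identical at 104 of 106 bases, and the 2 that differ are in capitals:

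Vpreb1: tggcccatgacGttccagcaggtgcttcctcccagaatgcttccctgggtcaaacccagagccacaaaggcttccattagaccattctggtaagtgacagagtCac
Vpreb2: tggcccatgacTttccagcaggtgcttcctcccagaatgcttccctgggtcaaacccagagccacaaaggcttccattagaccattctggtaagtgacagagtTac

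Both stretches hold the E-box and the GGGAA core, the core on the opposite strand. In the full 250 bases there were 1 GGGAA match and 1 E-box for Vpreb1, 2 and 2 for Vpreb2, 2 and 5 for Vpreb3, and 1 and 2 for Cd79a. Matches of this kind are common. Among 32851 RefSeq mouse promoter windows of the same length, 56.2% held GGGAA, 66.2% an E-box and 11.8% CCCNNGGG. Only exact letters were counted, so a gene without a match may still hold a site for that factor with other letters. A match may also be part of a site for another factor, and binding was not measured here.

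**Figure D1:**
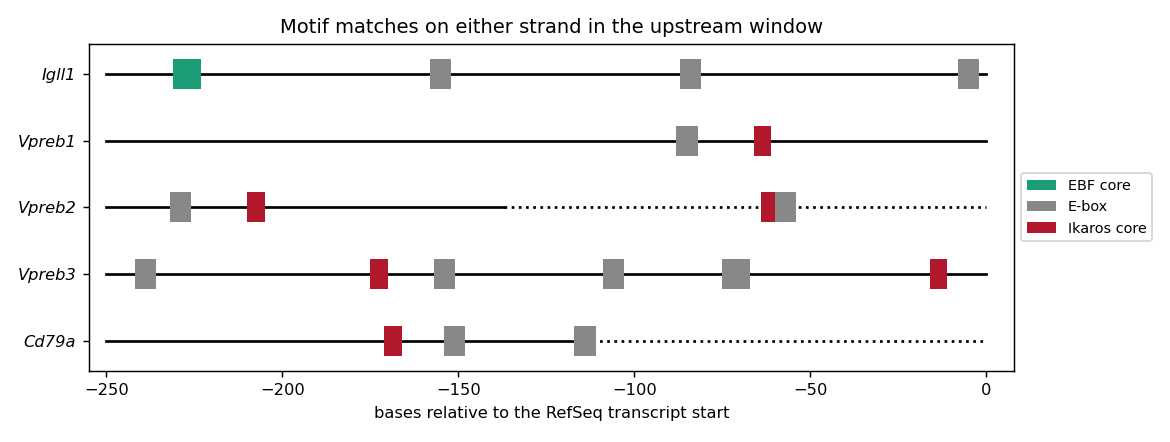
Motif matches in the 250 bases before the RefSeq transcript start of 5 genes (horizontal axis, bases relative to the start; boxes, matches on either strand; dotted lines, bases after the first start annotated by GENCODE). Igll1 holds the CCCNNGGG match and no GGGAA, and the other 4 genes hold 1 or 2 GGGAA matches.

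The transcripts of Vpreb1 and Vpreb2 were identical at 739 of 759 aligned bases (97.4%, GENCODE transcripts on GRCm38). The share of Vpreb2 stretches that occur whole in Vpreb1 depends on their length. It was 45.3% for stretches of 36 bases, 32.8% for 50 bases and 14.7% for 100 bases. How reads shared by both genes were counted is not given in the sources used here, so the RPKM of these copies and the split between them are uncertain. The deposited Vpreb2 entry also covers a shorter transcript, 431 bases against 759 in GENCODE.

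Igll1 was among the most abundant transcripts of these cells. It stood at 1396.2 RPKM in ZnF4, 475.5 in ZnF1 and 724.9 in wt in fraction C, and at 1049.9, 1022.9 and 639.9 RPKM in ZnF4, ZnF1 and wt in fraction B. The ZnF4 library was the highest in each fraction, while ZnF1 stood near ZnF4 in fraction B and below wt in fraction C. Igll1 ranked 2nd of all symbols in ZnF4 fraction C and 42nd in ZnF1 fraction C, the ends of its range over the 6 libraries. On the log2(RPKM + 1) scale used for all folds below, ZnF4 was 1.92-fold higher than wt in fraction C and 1.64-fold higher in fraction B, and ZnF1 was 1.52-fold lower than wt in fraction C and 1.60-fold higher in fraction B.

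Vpreb1 was lower than Igll1 per transcript length in every library. Its levels were 212.5 RPKM in ZnF4, 89.2 in ZnF1 and 143.7 in wt in fraction C, and 169.8, 239.4 and 143.5 RPKM in ZnF4, ZnF1 and wt in fraction B. The order of genotypes thus differed between the fractions, with ZnF1 lowest in fraction C and highest in fraction B. Against wt, ZnF4 was 1.48-fold higher in fraction C and 1.18-fold higher in fraction B.

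Vpreb2, the least abundant of the 6, went its own way. It had 28.6 RPKM in ZnF4, 27.5 in ZnF1 and 31.9 in wt in fraction C, and 11.9, 69.7 and 28.7 RPKM in ZnF4, ZnF1 and wt in fraction B. The fraction C libraries lay close together, and in fraction B the ZnF4 library was the lowest and the ZnF1 library the highest of all 6. In fraction B, Vpreb2 was 2.30-fold lower in ZnF4 than in wt and 2.38-fold higher in ZnF1 than in wt, so that the mutants differed by 5.48-fold. Its highest level was 5.86 times its lowest, against 2.41 to 3.22 times for the other 5 genes.

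Vpreb3 was about as abundant as Igll1. It stood at 1294.1 RPKM in ZnF4, 553.1 in ZnF1 and 597.5 in wt in fraction C, and at 1330.4, 1112.5 and 707.2 RPKM in ZnF4, ZnF1 and wt in fraction B. Both ZnF4 libraries lay above all 4 others. Vpreb3 was 2.16-fold higher in ZnF4 than in wt in fraction C and 1.88-fold higher in fraction B.

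Of the signalling pair, Cd79b was the more abundant per transcript length in every library. Cd79b had 986.2 RPKM in ZnF4, 450.0 in ZnF1 and 396.8 in wt in fraction C, and 1277.2, 1090.2 and 622.3 RPKM in ZnF4, ZnF1 and wt in fraction B. Cd79a had 372.3 RPKM in ZnF4, 235.9 in ZnF1 and 234.8 in wt in fraction C, and 430.2, 581.4 and 301.2 RPKM in ZnF4, ZnF1 and wt in fraction B. In wt, then, both chains stood lower in fraction C than in fraction B, and in fraction C the ZnF1 and wt levels of Cd79a were nearly equal. Against wt, ZnF4 was 2.48-fold higher for Cd79b in fraction C and 2.05-fold higher in fraction B, and 1.58-fold and 1.43-fold higher for Cd79a. In bulk RNA of this kind, fewer cells of a type and less RNA per cell cannot be told apart.

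**Figure D2:**
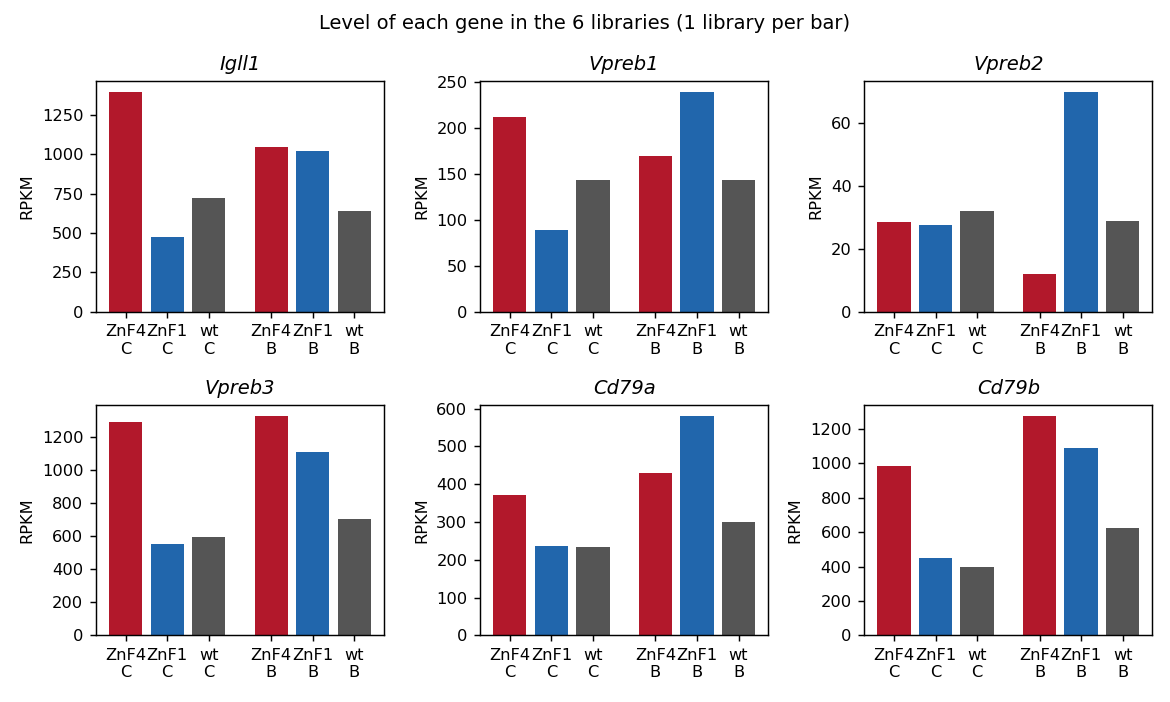
RPKM (vertical axis, from 0, a scale of its own for each gene) of the 6 genes in the 6 libraries, with 1 bar per library and no error bars because there are no replicates. The ZnF4 libraries stand highest in fraction C for 5 of the 6 genes, and the ZnF1 library of fraction B is the highest of all for Vpreb1, Vpreb2 and Cd79a.

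The libraries were checked for what else they held. Pax5, a transcription factor of committed B-lineage cells, was present in all 6, at 91.9 to 306.6 RPKM, with the lowest value in ZnF1 fraction C. Enpep, the gene of the BP-1 antigen that tells fraction C+C' from fraction B in the sort, stood at 20.2 to 56.6 RPKM in the fraction C libraries and at 1.1 to 3.5 RPKM in the fraction B libraries. The summed RPKM of 20 granulocyte and monocyte markers, none of them at 0, was 46041.8 in ZnF1 fraction C and 1064.1 to 4098.6 in the other 5 libraries, and that of 13 erythroid markers was 2417.7 in ZnF1 fraction C and 123.8 to 278.4 in the others. For 17 markers of NK, T and plasmacytoid dendritic cells the sums ran from 219.1 to 473.6, of which Ly6d alone made up 277.4 in ZnF4 fraction B and 233.7 in wt fraction B. The list's median log2 fold for ZnF4 against wt was -1.35 in fraction C and -2.27 in fraction B, with 8 of the 17 at 0 in ZnF4 fraction B (Gzma, Ncr1 and Cd3e among them) and 1, Ncr1, in ZnF4 fraction C. The part of these other cells in any result below was not tested. The Y-linked genes Eif2s3y (34.4 to 55.1 RPKM) and Ddx3y (11.9 to 15.0 RPKM) were found in all 4 libraries of the mutants and were at 0 in the wt pair, so sex and the difference between mutant and wt cannot be told apart. Ikzf1, the mutated gene, had 425.1 and 154.1 RPKM in ZnF4 and ZnF1 and 169.4 in wt in fraction C, and 431.6, 181.5 and 150.3 RPKM in fraction B. A value per transcript cannot show the loss of one finger, so these levels do not check the labels.

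How the ZnF4 mutant compared with wt is the first question of the design. In fraction C, 5 of the 6 genes were higher in ZnF4 and 2, Vpreb3 and Cd79b, were at least 2-fold higher, where 3.55% of the 10943 genes were. None of the 6 was at least 2-fold lower, against 6.12% of all genes. In fraction B, 5 of 6 were again higher, with Cd79b at least 2-fold higher (3.7% of all genes) and Vpreb2 at least 2-fold lower (9.81% of all genes). Markers of other cells moved with this comparison. In fraction B, 19 of 20 granulocyte and monocyte, 11 of 13 erythroid and 13 of 16 NK, T and plasmacytoid dendritic markers past the filter were below the wt level in ZnF4 by 2-fold or more, and in fraction C 7 of 20, 5 of 13 and 10 of 16 were. After rescaling on B-lineage genes none of the 6 was at least 2-fold higher in either fraction, where 1.62% of all genes were in fraction C and 1.34% in fraction B. Vpreb2 was still 2-fold lower in fraction B, where 27.6% of all genes were then at least 2-fold apart, most of them lower. As deposited, the median log2 fold of the 6 genes was 0.80 in fraction C and 0.61 in fraction B, beside -0.05 and -0.09 for all genes. Cd79b was the 1 gene of the 6 that was at least 2-fold higher in both fractions, which 2.59% of all genes were, and none was at least 2-fold lower in both (4.73% of all genes).

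A linear model over all 6 libraries with genotype and fraction as terms (limma, p adjusted by Benjamini-Hochberg over the 10943 genes) called none of the 6 between ZnF4 and wt. It leaves 2 residual degrees of freedom. With 1 library per group, these hold how the genotype differences vary between the 2 fractions. The p-values thus do not measure a spread between replicates. Cd79b had a log2 fold of 1.17 with a standard error of 0.37, an unadjusted limma p of 0.0281 and an adjusted p of 0.23, and was the 1 gene of the 6 with an unadjusted p under 0.05. Vpreb3 had 1.01 with a standard error of 0.40 (limma, adjusted p = 0.295) and Igll1 had 0.83 with 0.49 (limma, adjusted p = 0.442). The adjusted limma p was 0.457 for Cd79a, 0.681 for Vpreb1 and 0.596 for Vpreb2. Over the whole table the model called 3 genes (0.0274%), while 1930 genes, 17.6%, had an unadjusted p under 0.05.

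The call depended on the ZnF1 libraries. Fitted to the 4 ZnF4 and wt libraries alone, limma called Cd79b (adjusted p = 0.0101), Vpreb3 (0.014), Igll1 (0.022) and Cd79a (0.0256) as higher in ZnF4, together with 3494 genes over the table. Leaving out either ZnF1 library alone left the folds unchanged (log2 fold 1.17 for Cd79b and 0.83 for Igll1). The remaining ZnF1 library is then fitted exactly, so the spread again comes from the same 4 libraries. Among the 15 alternatives below, these fits are thus not separate checks, and each has fewer residual degrees of freedom than the full model. Over the 15 alternatives the adjusted limma p ran from 0.0101 to 1 for Cd79b, 0.014 to 1 for Vpreb3, 0.022 to 1 for Igll1 and 0.0256 to 0.9998 for Cd79a. Vpreb1 and Vpreb2 passed in none of the 15. An exact permutation test over 2 libraries against 2 that ignores fraction cannot go below a two-sided p of 0.333.

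For ZnF1 against wt, Igll1 and Vpreb1 were higher in ZnF1 in fraction B and lower in ZnF1 in fraction C, also under the 3 other scalings tried. In fraction B all 6 genes were higher in ZnF1, with folds of 1.60 for Igll1, 1.66 for Vpreb1, 2.38 for Vpreb2, 1.57 for Vpreb3, 1.93 for Cd79a and 1.75 for Cd79b. The median log2 fold was 0.77 beside 0.04 for all genes, and Vpreb2 was the 1 gene at least 2-fold higher, where 2.07% of all genes were, with none of the 6 and 2.21% of all genes at least 2-fold lower. These fraction B directions held under each of the 3 other scalings, and 11 of the 20 granulocyte and monocyte markers were at least 2-fold lower in ZnF1 in fraction B. In fraction C, Igll1 and Vpreb1 were 1.52-fold and 1.60-fold lower in ZnF1, Vpreb2 and Vpreb3 1.15-fold and 1.08-fold lower, and Cd79b was 1.13-fold higher and Cd79a at nearly the wt level. None of the 6 was 2-fold apart in fraction C (2-fold higher, 12.6% of all genes, and 2-fold lower, 7.39%), and the median of -0.16 equalled that of all genes to 2 decimals. Of the fraction C folds, those of Vpreb2, Vpreb3, Cd79a and Cd79b flipped under at least 1 of the scalings. None of the 6 was at least 2-fold apart in the same direction in both fractions, where 0.758% of all genes were higher and 0.804% lower. In fraction C all 20 granulocyte and monocyte markers and 12 of 13 erythroid markers were at least 2-fold higher in ZnF1, and in fraction B none on either list was.

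The limma model called none of the 6 genes between ZnF1 and wt (adjusted p 0.594 to 0.981), and none had an unadjusted p under 0.05. Over the table it called 3 genes (0.0274%), with 1018 under an unadjusted p of 0.05. Without the ZnF1 fraction B library, ZnF1 rests on its fraction C library alone, the one with the high granulocyte marker sum. Vpreb1 then had a log2 fold of -0.76, which has no replicate check.

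**Figure D3:**
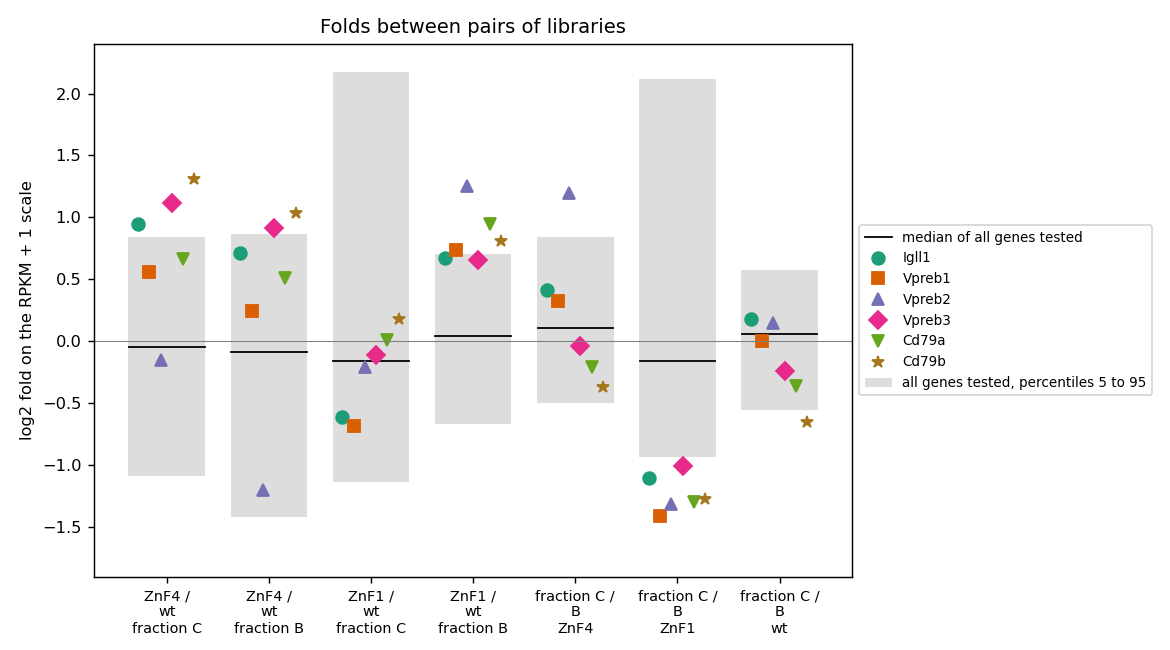
Log2 fold on the RPKM + 1 scale (vertical axis) of the 6 genes for 7 pairs of libraries, with the range from percentile 5 to 95 of all 10943 genes in grey and their median as a line. The 6 genes lie together below the grey range for fraction C against B in ZnF1, and Vpreb2 lies apart from the other 5 for ZnF4 against wt in fraction B.

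The mutants were also set against each other. In fraction C all 6 genes were higher in ZnF4 than in ZnF1, by 2.93-fold for Igll1, 2.37-fold for Vpreb1, 1.04-fold for Vpreb2, 2.34-fold for Vpreb3, 1.58-fold for Cd79a and 2.19-fold for Cd79b. The median log2 fold of the 6 was 1.18, beside 0.13 for all genes, 58.3% of which were higher. Of the 6, 4 were at least 2-fold higher, where 7.41% of all genes were. After the libraries were rescaled on B-lineage genes none of the 6 was, where 1.48% of all genes were. The log2 folds were then 0.63 for Igll1, 0.32 for Vpreb1, 0.30 for Vpreb3 and 0.21 for Cd79b. Vpreb2 and Cd79a turned lower in ZnF4 (-0.87 and -0.27). The median of the 6 after this rescaling was 0.26, beside -0.79 for all genes. In fraction C all 20 granulocyte and monocyte markers were lower in ZnF4 than in ZnF1 by 2-fold or more. As deposited, none of the 6 was 2-fold lower in fraction C (14.1% of all genes). In fraction B the genes split. Vpreb2 was 5.48-fold lower in ZnF4 than in ZnF1 (10.9% of all genes were at least 2-fold lower), Vpreb1 1.41-fold and Cd79a 1.35-fold lower, while Igll1, Vpreb3 and Cd79b were 1.03-fold, 1.20-fold and 1.17-fold higher, a direction that flips under the same rescaling. None of the 6 was 2-fold higher in fraction B (4.95% of all genes) or 2-fold apart the same way in both fractions (3.11% of all genes higher and 5.45% lower). The limma model called none of the 6 (adjusted p 0.314 to 0.88) and called 199 genes over the table (1.82%). Without the ZnF1 fraction B library, ZnF1 rests on its fraction C library alone, the one with the high granulocyte marker sum. The log2 folds were then 1.49 for Igll1, 1.16 for Vpreb1, 1.17 for Vpreb3, 0.62 for Cd79a and 1.06 for Cd79b. Vpreb2 was lower in ZnF4, at -0.21. Without the ZnF1 fraction C library, ZnF1 rests on its fraction B library alone, and Vpreb2 had a log2 fold of -2.19. Over the 15 alternatives the adjusted limma p of each of the 6 reached at least 0.923.

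The step from fraction B to fraction C looked different in each genotype. In ZnF4 the surrogate light chain genes were higher in fraction C, Igll1 by 1.33-fold, Vpreb1 by 1.25-fold and Vpreb2 by 2.29-fold, and Vpreb3, Cd79a and Cd79b were lower by 1.03-fold, 1.16-fold and 1.29-fold. Vpreb2 was thus the 1 gene at least 2-fold higher, where 2.76% of all genes were, and none was 2-fold lower (0.585% of all genes). In ZnF1 all 6 genes were at least 2-fold lower in fraction C, by 2.01-fold for Vpreb3 to 2.67-fold for Vpreb1, where 4.16% of all genes were lower and 10.1% higher by that much, and their median log2 fold was -1.29 beside -0.16 for all genes. After rescaling on B-lineage genes all 6 were still lower but none was 2-fold lower, where 21.4% of all genes were 2-fold apart and 21.1% were 2-fold higher. All 20 granulocyte and monocyte markers exceeded 2-fold the other way in ZnF1 fraction C, with a summed level of 46041.8 RPKM against 1780.9 in ZnF1 fraction B. In wt the differences were small for the surrogate light chain, with Igll1 1.13-fold and Vpreb2 1.11-fold higher in fraction C and Vpreb1 nearly equal, and Vpreb3, Cd79a and Cd79b were 1.18-fold, 1.28-fold and 1.57-fold lower. None of the 6 was 2-fold apart in wt (0.338% of all genes higher and 1.01% lower).

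Cd79a and Cd79b were lower in fraction C than in fraction B in all 3 genotypes and under each of the 3 other scalings. Cd79a in ZnF4 was nearly level after B-lineage rescaling, with a log2 fold of -0.03. The limma model gave Cd79b a log2 fold of -0.77 (standard error 0.30, adjusted p = 0.854) and Cd79a one of -0.62 (adjusted p = 0.854), and passed none of the 6. It called 0 genes over the table (0%), with 511 genes, 4.67%, under an unadjusted p of 0.05. No gene of the 6 was at least 2-fold apart in the same direction in all 3 genotypes, which 0.0274% of all genes were in each direction. With 3 libraries against 3 an exact permutation test that ignores genotype cannot go below a two-sided p of 0.1.

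The folds were also taken after each library was rescaled on the median of 15 B-lineage genes that include none of the 6. The log2 differences of these medians, which the rescaling takes off each fold, were 0.44 for ZnF4 against wt in fraction C, 0.53 in fraction B, -0.48 for ZnF1 against wt in fraction C, 0.10 in fraction B and -0.68 for fraction C against B in ZnF1. After it, ZnF4 against wt had medians of 0.36 in fraction C, with 5 of 6 genes still higher, and of 0.08 in fraction B, with 3 higher. Vpreb1 and Cd79a then turned lower in ZnF4 in fraction B, at -0.29 and -0.02. For ZnF1 against wt in fraction C, 4 of 6 genes were then higher, from 0.27 for Vpreb2 to 0.66 for Cd79b. Igll1 and Vpreb1 were still lower at -0.13 and -0.20. The median of the 6 in this comparison was 0.32, as was that of all genes. All 6 genes remained lower in fraction C than in fraction B in ZnF1, with a median of -0.61 beside 0.52 for all genes. None of the 6 was past 2-fold, where 21.4% of all genes were 2-fold apart and 21.1% were 2-fold higher. Over all genes the median itself moved to -0.49 and -0.62 for ZnF4 against wt in fractions C and B, so each of these folds is relative to the B-lineage genes.

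**Figure D4:**
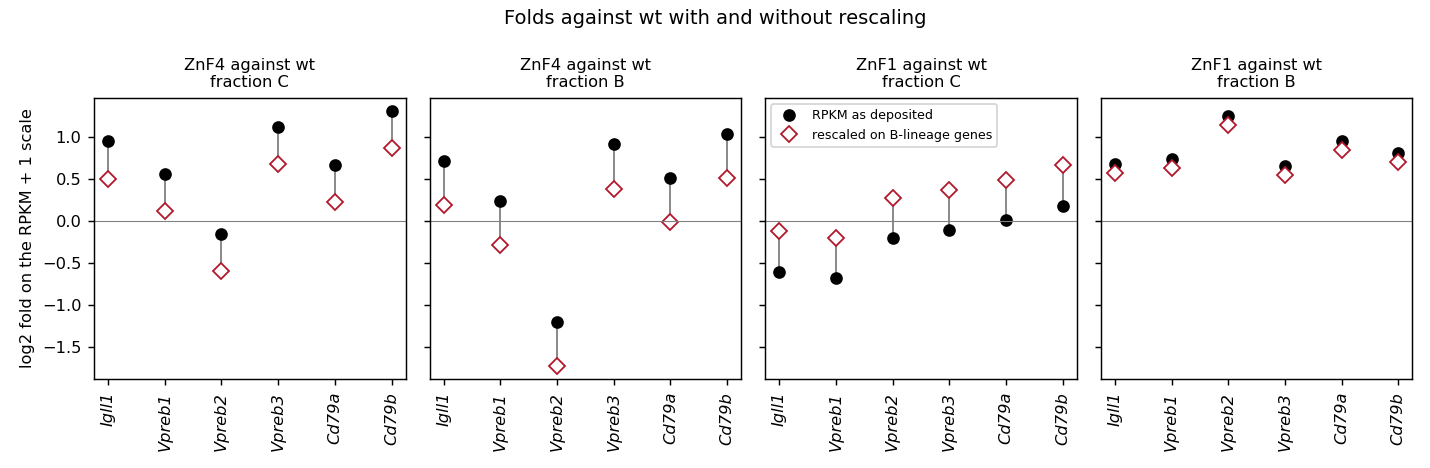
Log2 fold against wt on the RPKM + 1 scale (vertical axis) of each gene, as deposited (filled circles) and after rescaling on 15 B-lineage genes (open diamonds), in 4 panels by mutant and fraction. The values for ZnF1 in fraction B hardly move, those for ZnF4 move down, and those for ZnF1 in fraction C move up, across 0 for Vpreb2 and Vpreb3.

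Ratios of these genes within a library do not depend on any such scaling. The Vpreb2 to Vpreb1 ratio was 0.135 in ZnF4, 0.308 in ZnF1 and 0.222 in wt in fraction C, and 0.0701, 0.291 and 0.200 in ZnF4, ZnF1 and wt in fraction B. ZnF4 was thus lowest and ZnF1 highest in both fractions, 1.65-fold and 2.85-fold below wt for ZnF4 in fractions C and B, and 1.39-fold and 1.46-fold above wt for ZnF1. Since the copies share reads, the ratio is of the values as counted by the authors.

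The Cd79b to Cd79a ratio was 2.65 in ZnF4, 1.91 in ZnF1 and 1.69 in wt in fraction C, and 2.97, 1.88 and 2.07 in ZnF4, ZnF1 and wt in fraction B. It was highest in ZnF4 in both fractions, whereas ZnF1 lay above wt in fraction C and below it in fraction B. The Vpreb1 to Igll1 ratio was lowest in ZnF4 in both fractions, at 0.152 in ZnF4, 0.188 in ZnF1 and 0.198 in wt in fraction C and 0.162, 0.234 and 0.224 in fraction B. Vpreb3 to Cd79a was highest in ZnF4 in both fractions, at 3.48 in ZnF4, 2.34 in ZnF1 and 2.54 in wt in fraction C and 3.09, 1.91 and 2.35 in fraction B.

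The balance between the surrogate light chain and the signalling pair was taken as the mean RPKM of Igll1, Vpreb1 and Vpreb2, in which Igll1 weighs most, over that of Cd79a and Cd79b. It was 0.803 in ZnF4, 0.576 in ZnF1 and 0.950 in wt in fraction C, and 0.481, 0.531 and 0.586 in ZnF4, ZnF1 and wt in fraction B. Each genotype was thus higher in fraction C, by 1.67-fold in ZnF4, 1.08-fold in ZnF1 and 1.62-fold in wt, and each mutant was below wt in both fractions. None of these ratios was tested, since each group has 1 library.

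**Figure D5:**
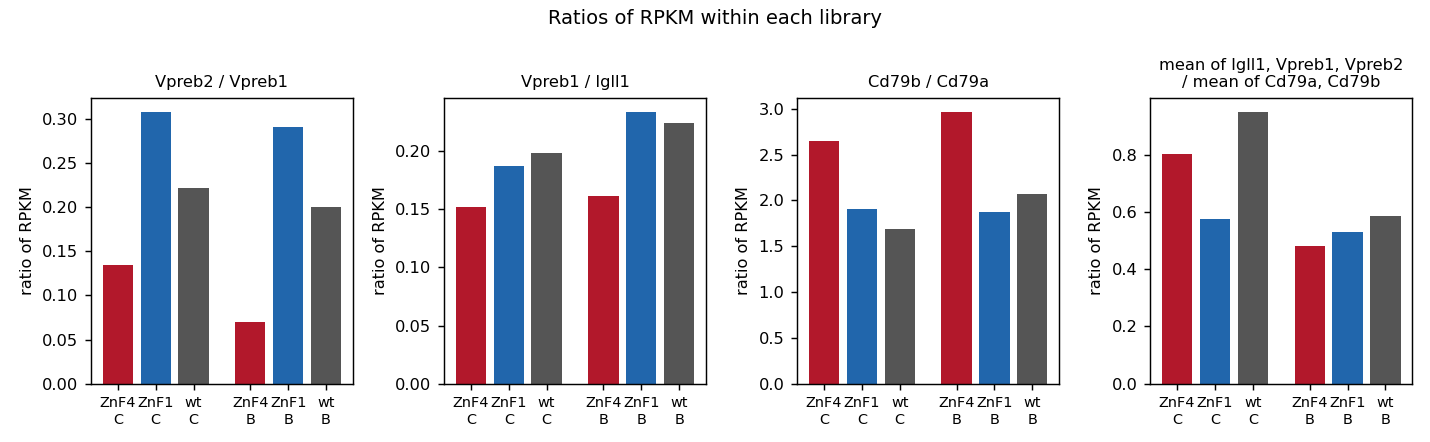
Ratios of RPKM between genes within each library (vertical axes, from 0), with 1 bar per library and no error bars because there are no replicates. Vpreb2 to Vpreb1 is lowest in ZnF4 and highest in ZnF1 in both fractions, and the surrogate light chain to Cd79 ratio is higher in fraction C than in fraction B in each genotype.

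Across the 6 libraries, Vpreb3 and Cd79b had the most similar profiles of all pairs among the 6 genes (Pearson r = 0.966 of log2(RPKM + 1), a description over 6 libraries that share genotypes, fractions and scaling). Igll1 went with Vpreb3 (r = 0.92) and Vpreb1 (r = 0.898), and Cd79a with Cd79b (r = 0.912). Vpreb2 stood apart from the other 5, with r from -0.15 to 0.33. Among 6233 other genes whose mean RPKM was 10 or more, the profile nearest to Cd79b by root mean square difference of centred log2 values was Sorcs2 (0.0965, r = 0.992), followed by Endou and Epha2. Nearest to Igll1 were Mbd4 (0.12, r = 0.978), Cnn3 and Cbx6, and nearest to Vpreb1 were Cnn3, Mfge8 and Wdfy4. For Vpreb3 they were Jmjd7, the entry Mir546 and Endou, for Cd79a Vgll4, Dusp2 and Stambpl1, and for Vpreb2 BC017612, Sqle and Hint1. Vpreb2 had no neighbour as close as the others had, its nearest lying at 0.227.

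The receptor's signalling genes were followed as a list of 28 entries, 27 of which were in the table and passed the filter. For ZnF4 against wt the list's median log2 fold was 0.38 in fraction C, with 20 of 27 higher, and 0.51 in fraction B, with 18 of 27 higher, beside -0.05 and -0.09 for all genes. At least 2-fold higher in both fractions, as were 2.59% of all genes, were Pik3ap1, an adaptor that links the receptor to phosphoinositide 3-kinase, and Rasgrp1, an exchange factor that activates Ras, and none of the 27 was at least 2-fold lower in both (4.73% of all genes). Pik3ap1 had 291.0 RPKM in ZnF4 and 133.8 in wt in fraction C, and 328.4 and 154.8 RPKM in fraction B. Rasgrp1 had 19.3 RPKM in ZnF4 and 6.9 in wt in fraction C, and 33.5 and 12.7 RPKM in fraction B. For ZnF1 against wt the medians were -0.16 and 0.10 in fractions C and B, beside -0.16 and 0.04 for all genes. Shares of all genes past 2-fold in both fractions of this comparison were 0.758% (higher) and 0.804% (lower). The adaptor Bank1 was at least 2-fold higher in both (7.6 RPKM in ZnF1 and 2.9 in wt in fraction C, 16.2 and 5.1 in fraction B), and Zap70, a kinase of the Syk family, at least 2-fold lower in both (2.0 and 10.5, and 1.9 and 5.0).

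Of 20 B-lineage transcription factors on a second list, 19 were in the table and passed the filter. For ZnF4 against wt their median log2 fold was 0.32 in fraction C and 0.46 in fraction B, beside -0.05 and -0.09 for all genes. Of the 19, 4 were at least 2-fold higher in both fractions, as were 2.59% of all genes. They were Ikzf1 itself, Ikzf3 (Aiolos), the Ets factor Spib and the repressor Bach2. Lef1, an HMG-box factor, was at least 2-fold lower in both (4.73% of all genes), at 54.5 RPKM in ZnF4 and 139.2 in wt in fraction C and 36.5 and 117.2 in fraction B. For ZnF1 against wt the medians were -0.64 and 0.06 in fractions C and B, beside -0.16 and 0.04 for all genes. None was at least 2-fold higher in both (0.758% of all genes), and Ikzf3 was at least 2-fold lower in both (0.804% of all genes), at 17.4 RPKM in ZnF1 and 51.4 in wt in fraction C and 11.9 and 61.9 in fraction B. In fraction C against B of ZnF1, 7 of the 19 were at least 2-fold lower, beside 4.16% of all genes and in the library with the high granulocyte marker sum. Ebf1 and Pax5, named here as activators of the 6 genes after their values were seen, had 73.3 and 91.9 RPKM in ZnF1 fraction C and 164.8 and 243.6 in ZnF1 fraction B.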

How the data were processed

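RNA-seq of 6 libraries of sorted proB cells was used, 1 for each of 3 genotypes and 2 Hardy fractions, grouped by the sample titles. The values are RPKM computed by the authors for each RefSeq transcript and deposited rounded to 0.1, per the file headers. TopHat, bedtools and build mm9 are named per the submitters' processing notes. The handling of strand and of shared reads is not given in the sources used here.

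The table held 26532 entries. 1 entry had no gene name and was left out, and 0 columns belonged to other samples. For the 3305 symbols with several transcripts, the transcript with the highest mean RPKM was used. Genes were tested where their mean RPKM was 1 or more. Whole reads could not be recovered from the values (13.4% to 22.1% whole at best, against 11.1% to 17.4% by chance, within the rounding), so depth is unknown and no counting interval is given.

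Folds are differences of log2(RPKM + 1), which understates changes of low genes. limma 3.58.1 (R 4.3.3; lmFit, eBayes with trend) was fitted to all 6 libraries with genotype and fraction as terms, two-sided, with Benjamini-Hochberg adjustment and a threshold of 0.05. The code was tested on simulated data. Alternatives were pseudocounts, filters, no trend, summed transcripts, 3 other scalings (median, quantile, B-lineage genes), the 4 libraries compared, a 1.5-fold threshold, and leaving out each library.

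The genes named are the 6, the signalling and transcription factor genes at least 2-fold apart in the same direction in both fractions against wt, the 3 nearest profiles and the 2 nearest expressed genes on each side of each, and cell type markers. The genes and lists were chosen with earlier results of these data known. Promoter sequences are from RefSeq (GRCm38.p6), matched by symbol, transcript sequences from GENCODE, and no coordinates were carried over from mm9.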

Additional observations from a re-analysis of the deposited data

Results flagged for a closer look

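Some genes moved by at least 1.25-fold one way in one comparison and by at least 1.25-fold the other way in its counterpart. With 1 library per group these differences were not tested. For ZnF1 against wt, Igll1 had a log2 fold of -0.61 in fraction C and 0.68 in fraction B, a difference of -1.28, and Vpreb1 had -0.68 and 0.73, a difference of -1.42. For ZnF4 against ZnF1, Vpreb1 had 1.24 in fraction C and -0.49 in fraction B (difference 1.74), and Cd79a had 0.66 and -0.43 (difference 1.09). After rescaling on B-lineage genes the first 3 kept opposite directions, at -0.13 and 0.57, -0.20 and 0.63, and 0.32 and -0.92 in fractions C and B, but no longer by 1.25-fold both ways. Cd79a was then lower in ZnF4 in both fractions, at -0.27 and -0.86, beside medians of -0.79 and -0.60 for all genes in fractions C and B.

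For fraction C against B, the ZnF4 and ZnF1 mutants went opposite ways in all 3 surrogate light chain genes. Igll1 had a log2 fold of 0.41 in ZnF4 and -1.10 in ZnF1 (difference 1.51), Vpreb1 had 0.32 and -1.41 (difference 1.74), and Vpreb2 had 1.20 and -1.31 (difference 2.51). These 3 also kept opposite directions after the rescaling, at 0.59 and -0.43, 0.50 and -0.74, and 1.38 and -0.63 in ZnF4 and ZnF1. Each of them rests on the ZnF1 fraction C library, whose granulocyte and monocyte marker sum was 46041.8 RPKM, against 1780.9 in ZnF1 fraction B. The part of that sum in these differences was not tested.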

How the results depend on the processing

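The count of genes at least 2-fold higher in ZnF4 than in wt in both fractions, 1 of the 6, was 0 after B-lineage rescaling and 3 at 1.5-fold. The limma counts over all genes depended on the setting. For ZnF4 against wt, 3 genes were called as reported, 5 with a pseudocount of 0.25, 132 with no filter, 1 with a mean of at least 5 RPKM, 6 without trend, 7 after median rescaling, 1948 after B-lineage rescaling (85 higher and 1863 lower), 3494 from the 4 libraries, and 0 to 3453 without 1 library. For ZnF1 against wt, 3 became 102 with no filter, 1 with a mean of at least 5 RPKM, 5 without trend, 0 after B-lineage rescaling, 0 from the 4 libraries, and 0 to 4116 without 1 library. For ZnF4 against ZnF1, 199 (125 higher and 74 lower) became 97 with no filter, 303 after median rescaling, 3822 after B-lineage rescaling (180 higher and 3642 lower), and 0 to 4109 without 1 library. For fraction C against B, 0 became 11 with no filter. The cause was not tested.

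Where a library is left out, the lone sample of its genotype is assumed to vary like the others. No paired analysis was possible because each group has 1 library and the labels carry no replicate numbers. With unknown depth, a level near 0 cannot be told from no expression, and levels of Vpreb1 and Vpreb2 are limited by shared reads.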

Other observations

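Neighbouring genes along the chromosome were looked at beside the 6, in the order of the RefSeq gene table. Chchd10, next to Vpreb3, had 147.9 RPKM in ZnF4, 65.8 in ZnF1 and 68.3 in wt in fraction C, and 164.3, 193.9 and 77.5 RPKM in ZnF4, ZnF1 and wt in fraction B. Its log2 fold for ZnF4 against wt, 1.10 in fraction C and 1.07 in fraction B, lay beside 1.11 and 0.91 for Vpreb3. For ZnF1 against wt it had -0.05 in fraction C and 1.31 in fraction B, where Vpreb3 had -0.11 and 0.65. Mmp11, the next gene on that side, had log2 folds of 0.67 and 0.38 for ZnF4 against wt in fractions C and B.

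Gh, the growth hormone gene next to Cd79b, was at 7.6 RPKM in ZnF4, 0.6 in ZnF1 and 1.7 in wt in fraction C, and at 17.5, 3.9 and 4.5 RPKM in ZnF4, ZnF1 and wt in fraction B. Scn4a, a sodium channel gene on the other side of Cd79b, was at 4.7, 2.4 and 2.4 RPKM in fraction C and 11.1, 6.9 and 5.3 RPKM in fraction B of ZnF4, ZnF1 and wt. Both were highest in ZnF4 in each fraction, as Cd79b was, and both were lower in fraction C than in fraction B in each genotype.

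Dgcr6, next to Vpreb2, had 11 RPKM in ZnF4, 16.5 in ZnF1 and 16.1 in wt in fraction C, and 11.3, 33.6 and 15.6 RPKM in ZnF4, ZnF1 and wt in fraction B. Like Vpreb2 it had its highest value in ZnF1 fraction B. Slc25a1, on its other side, had log2 folds of -0.96 and -0.92 for ZnF4 against wt in fractions C and B, where Vpreb2 had -0.15 and -1.20. Igll1 and Vpreb1 are neighbours on chromosome 16, and Top3b, beyond Vpreb1, had log2 folds of 0.49 and 0.52 for ZnF4 against wt in fractions C and B and of -0.67 and -0.03 for ZnF1 against wt.

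The remaining neighbours took both directions. For ZnF4 against wt in fractions C and B, Gm5134 and Zfp280b, on the other side of Vpreb3, had log2 folds of -0.25 and -0.03 and of -0.11 and -0.20. Smarcd2, near Cd79b, had -0.08 and -0.23, while Icam2, on the other side, had 0.57 and 0.98. Fgd4 and Dnm1l, near Igll1, had -0.32 and -1.12 and -0.23 and -0.44, and Ppm1f, near Vpreb1, had 0.44 and 0.68. Near Vpreb2, Dgcr14 had 0.07 and 0.15 and Prodh had -0.94 and -0.47. The neighbours of Cd79a had 0.21 and -0.39 (Rps19), 0.14 and -1.05 (Ceacam10), 0.31 and 0.55 (Arhgef1) and 0.10 and -0.16 (Rabac1), beside 0.66 and 0.51 for Cd79a.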
